A study of Dipsacus asperoides with 9 samples.

Results

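Roots of Dipsacus asperoides seedlings at the two-leaf stage (L2) were compared with roots at the one-leaf stage (L1), with 3 RNA-seq libraries of each stage. The plants were wild type, and no stage carried a treatment or a transgene. The table held 9 libraries in all. The other 3, from roots of plants grown for 7 months (M7), stood outside the comparison and served as side values. A unigene, that is a gene-level cluster of transcripts assembled without a reference genome, entered the comparison where 3 or more of the 6 seedling libraries had an FPKM of 1 or more. FPKM scales the fragments of a transcript by its length and by the mapped fragments of the library. Of 65535 unigenes in the table, 32633 entered, and 21914 of them carried a description, namely the name of the closest database protein and of its species. A table of 65535 rows under a header is as long as a sheet of the older spreadsheet format can be, so it may hold part of the assembly, and every share and count here refers to the rows of the table. Just inside this limit, 961 unigenes had a third-highest value of 1.00 to 1.05 FPKM, and just outside it, 775 had one of 0.95 to 0.99 FPKM. Through the L2 libraries alone 6761 unigenes entered, being at 1 FPKM or more in all 3 L2 libraries and in no L1 library, and 2827 entered through the L1 libraries alone. These had to differ. They were kept in the counts, and no test is given for those that are named. Some named unigenes reached 1 FPKM in only part of the lower stage's libraries and needed the higher stage to enter. These are TRINITY_DN21580_c0_g1, TRINITY_DN106980_c0_g1, TRINITY_DN1105_c0_g2, TRINITY_DN20800_c0_g2 and TRINITY_DN21252_c0_g1. The filter favoured a difference in them, and their adjusted p carries that limit. The number of plants behind a library was not given in the sources used here.

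A seedling root grows from a meristem at its tip, whose daughter cells elongate, widen and then take on the walls and barriers of mature tissue. Xylem vessels are lignified, the endodermis forms Casparian strips and later suberin, and root hairs and transporters take up phosphate, nitrate and sulfate. As the first leaves unfold, the seedling passes from the reserves of the seed to sugar made by its own leaves, which reaches the root through the phloem. In these bulk libraries, fewer cells of a type and less RNA per cell cannot be told apart.

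The L2 libraries lay much closer together than the L1 libraries. Among unigenes with a stage mean of 30 to 100 FPKM the median coefficient of variation (CV, the SD as a share of the mean) was 21.8% in L1, 4.95% in L2 and 32.6% in M7. L1 replicate 3 stood apart from the other L1 libraries. On log2(FPKM + 1) across the tested unigenes its Pearson correlation with L1 replicates 1 and 2 was 0.894 and 0.912, against 0.956 between replicates 1 and 2 and 0.947 to 0.948 between L2 libraries. Its 100 highest unigenes held 34.16% of its summed FPKM, against 25.29% and 26.46% in the other L1 libraries and 20.62% to 21.63% in L2. Of the tested unigenes 7646 were listed at 0 in it, against 5652 and 5870 in L1 replicates 1 and 2 and 2448 to 2506 in L2. The first principal component of the tested unigenes held 76.9% of the variance and separated the stages. These unigenes include those that entered through the libraries of 1 stage alone, so part of that share follows from the filter.

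**Figure D1:**
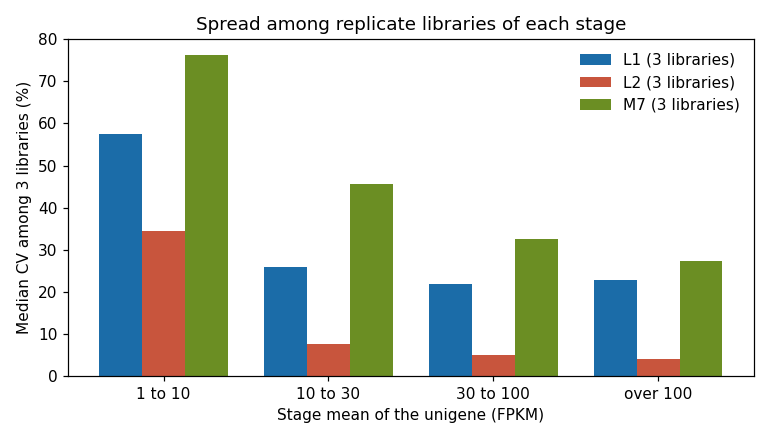
Median coefficient of variation (%) among the 3 libraries of each stage, for unigenes binned by their stage mean in FPKM (bars: L1, L2 and M7). At 30 to 100 FPKM the L1 bar stands at 21.8% and the L2 bar at 4.95%.

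The tested unigenes changed widely between the stages. On log2(FPKM + 1), with limma and a Benjamini-Hochberg adjusted p under 0.05, 10074 unigenes were up-regulated in L2, which is 30.9% of those tested, and 5869 were down-regulated, which is 18%. The median log2 fold change over all tested unigenes was 0.33, and every fold change of a list is best read beside it. Under quantile normalization that median was -0.02, and 7721 unigenes rose and 8091 fell. Without L1 replicate 3 the counts were 11155 and 7024. The study's stricter limits for a differentially expressed gene (DEG) also ask for a log2 fold change beyond 2 in either direction and for a maximum above 30 FPKM, which was taken here as the higher stage mean. They were passed by 290 unigenes that rose, 0.889% of those tested, and by 135 that fell, 0.414%. Without L1 replicate 3 these were 252 and 105, and with the maximum taken as the highest single library they were 345 and 218. Because 1 is added before the logarithm, small values give fold changes that are too small.

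The fold changes separated by the species of the database match. Of 17438 tested unigenes matched to other species the median log2 fold change was 0.20, with quartiles of -0.36 and 0.84. The 2266 unigenes matched to Caryophyllales (beet, spinach, quinoa and their relatives) had a median of -1.01 with quartiles of -1.35 and -0.67, and 1493 of them fell while 73 rose. The 1992 matched to the cork oak Quercus suber had a median of 1.69, with 1384 that rose and 312 that fell. The 218 matched to barley, Hordeum vulgare, had a median of 1.72, and the 10719 without a description one of 0.75. A match names the nearest database entry and not the organism the RNA came from.

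The summed level of these match groups moved with the stage in each library. Unigenes matched to Caryophyllales held 2.05%, 2.33% and 2.55% of the summed FPKM in L1 and 0.903%, 1.03% and 1.02% in L2. Those matched to Quercus suber held 1.42%, 1.33% and 1.53% in L1 and 2.65%, 2.74% and 2.63% in L2. No L1 library overlapped an L2 library in either share. In M7 most of these unigenes were not seen. All 3 M7 libraries were under 0.1 FPKM for 96.6% of the tested Caryophyllales matches, 84.2% of the Quercus suber matches and 95% of the barley matches, against 20.2% of the unigenes matched to other species. Over all match groups, 4123 unigenes were under 0.1 FPKM in every L1 and every M7 library and at 1 FPKM or more in every L2 library, and they held 4.39% to 4.68% of the summed FPKM in L2. Of these, 875 were matched to Quercus suber, 99 to barley and 1021 to other species. The reverse, under 0.1 FPKM in every L2 and M7 library and at 1 FPKM or more in every L1 library, was seen for 1301 unigenes. The part of these groups in the results that follow was not tested, so list counts are also given, with the same calls, over the 20033 unigenes that reached 0.1 FPKM in any M7 library, called M7-detected here, of which 21.5% rose and 11% fell. The M7 libraries held fewer unigenes at 1 FPKM or more, 13430 to 18794 against 26048 to 34173 in the seedlings, so that a seedling gene may also be missing from that set.

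**Figure D2:**
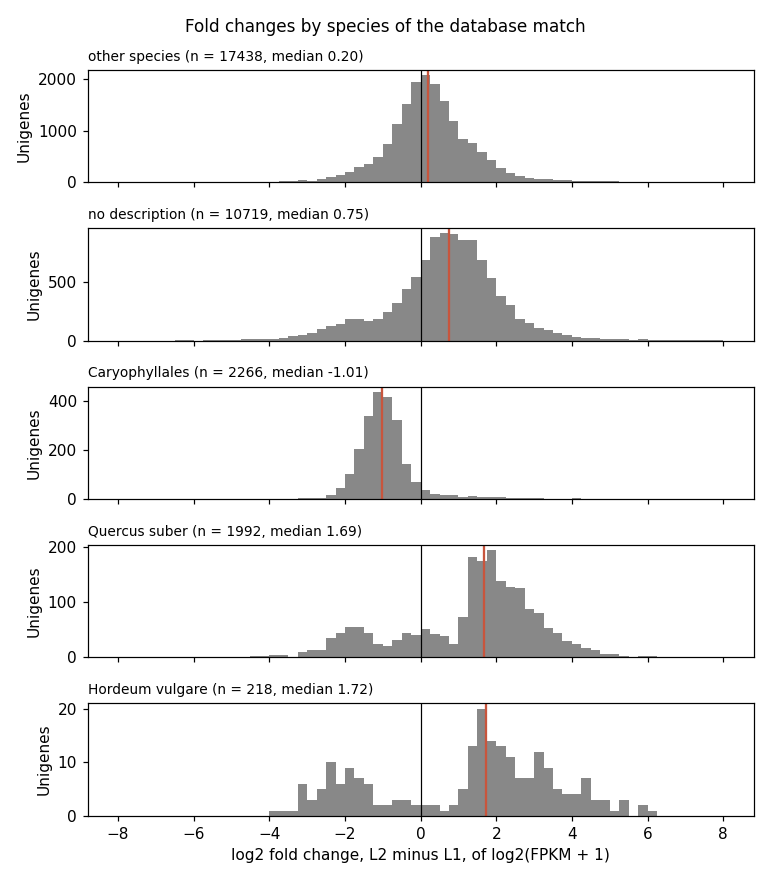
Histograms of the log2 fold change, L2 minus L1, of log2(FPKM + 1), with the number of unigenes on the y axis, for 5 groups of tested unigenes by the species of their database match. Red lines mark the medians, which run from -1.01 for Caryophyllales to 1.69 and 1.72 for Quercus suber and barley, and black lines mark 0.

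Described unigenes were sorted by name into 57 function lists and 5 lists of tissue markers. The lists are described by their counts and medians beside those of all tested unigenes, and no list was tested as a set. In 50 of the 57 lists the median was below the 0.33 of all tested unigenes, which includes those without a description. The members named below are mostly the 3 largest rises and falls of a list among unigenes with a stage mean of at least 10 FPKM, an adjusted p under 0.05 and no overlap between L1 and L2 libraries, so their lack of overlap follows from the choice. Where a call was lost with the M7 libraries also in the fit, which adds their spread to the variance, the adjusted p of that fit stands beside the reported one.

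**Figure D3:**
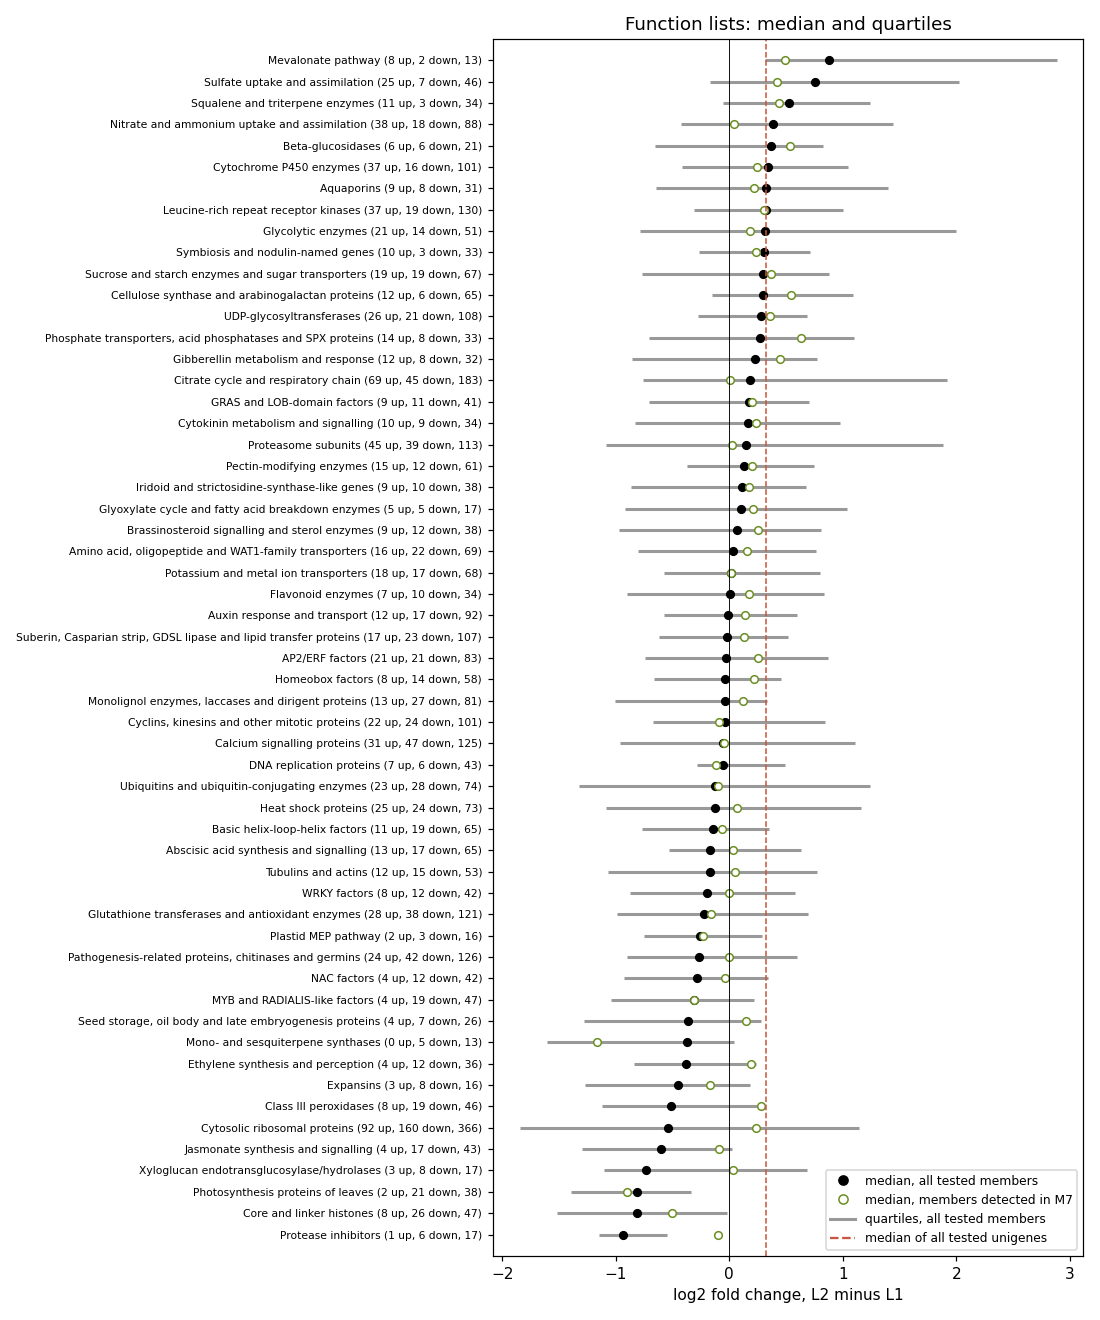
Median log2 fold change, L2 minus L1, of the 56 function lists with at least 10 tested members (filled points), their quartiles (grey bars) and the median of their M7-detected members (open points). In parentheses stand the members that rose, that fell and that were tested, and the dashed line marks 0.33, the median of all tested unigenes. Of the 26 medians above 0, 17 fell below 0 under quantile normalization, and none of those below 0 rose above it.

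Genes of phosphate supply held some of the largest rises. Of 33 tested phosphate transporters, acid phosphatases and SPX proteins, 14 rose and 8 fell, with a median of 0.27 that became -0.06 under quantile normalization. The median of all tested unigenes went from 0.33 to -0.02. The rises were 42.4% and the falls 24.2%, both above the 30.9% and 18% of all tested unigenes. Among the 21 M7-detected members, 12 rose and 3 fell, with a median of 0.63 beside 0.28 for all M7-detected unigenes. Purple acid phosphatases free phosphate from organic compounds. The unigene matched to purple acid phosphatase 17 (TRINITY_DN12936_c0_g1) stood at 0.27, 0.33 and 0.44 FPKM in L1, at 46.6, 47.4 and 49.4 FPKM in L2 and at 0.12, 0.50 and 0.35 FPKM in M7 (log2 fold change 5.18, given with no test because it entered through L2 alone). It was below 1 FPKM in every L1 and M7 library and above 40 FPKM in every L2 library. Purple acid phosphatase 2-like (TRINITY_DN21580_c0_g1) stood at 0.90, 0.88 and 1.56 FPKM in L1, at 38.4, 37.6 and 40.3 FPKM in L2 and at 1.15, 1.82 and 5.58 FPKM in M7 (log2 fold change 4.25 ± 0.17 (SE), adjusted p = 3.64e-05 from limma). SPX domain proteins bind inositol phosphates and hold back phosphate starvation responses when phosphate is ample, and in Arabidopsis some are themselves induced by starvation. SPX domain-containing protein 2 (TRINITY_DN16934_c0_g3) stood at 12.8, 15.3 and 19.2 FPKM in L1, at 229.8, 249.6 and 238 FPKM in L2 and at 5.40, 20.8 and 30.3 FPKM in M7 (log2 fold change 3.86 ± 0.16 (SE), adjusted p = 3.91e-05 from limma). Outside the naming rule and chosen after their values were seen, inorganic phosphate transporter 1-4-like (TRINITY_DN319_c0_g1) stood at 9.18, 9.80 and 5.89 FPKM in L1 and at 113, 109.7 and 112 FPKM in L2 (log2 fold change 3.62 ± 0.19 (SE), adjusted p = 7.06e-05 from limma) and SPX domain-containing protein 1-like (TRINITY_DN16934_c0_g1) stood at 7.46, 7.51 and 5.18 FPKM in L1 and at 98.6, 96.3 and 96.6 FPKM in L2 (log2 fold change 3.68 ± 0.16 (SE), adjusted p = 4.25e-05 from limma). In both, every L2 library lay several-fold above every L1 library. The phosphatases did not move one way. A further purple acid phosphatase (TRINITY_DN19592_c0_g2) fell from 42.8, 47.4 and 66.9 FPKM to 17.7, 17.5 and 19.4 FPKM (log2 fold change -1.45 ± 0.19 (SE), adjusted p = 0.00123 from limma and 0.115 with all 9 libraries fitted). Without L2 replicate 1 or 2, 9 members rose.

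**Figure D4:**
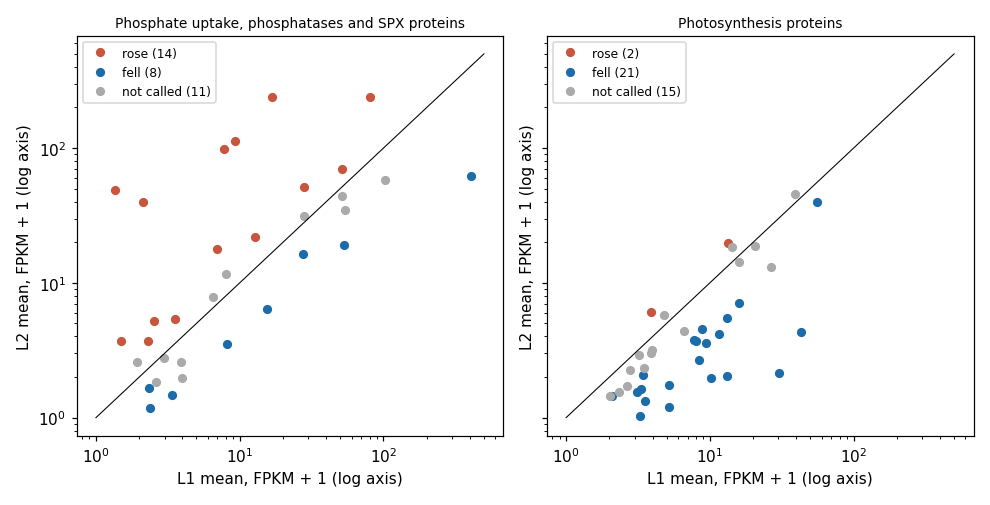
L1 mean (x axis) against L2 mean (y axis), each as FPKM + 1 on a log axis, for the tested unigenes of the phosphate list (left) and of the photosynthesis list (right). Points above the diagonal line are higher in L2, and the colours mark the 14 and 2 that rose and the 8 and 21 that fell.

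Sulfur genes rose more often than they fell, with 25 of 46 up, 7 down and a median of 0.75. Among 26 M7-detected members 10 rose and 5 fell. Many of the others bore the names of enzymes that plants are not known for. Sulfite reductase of the NADPH type and phosphoadenosine phosphosulfate reductase are known from fungi and bacteria, while plants use a ferredoxin-dependent sulfite reductase and adenosine phosphosulfate reductase. All 8 tested unigenes with the NADPH sulfite reductase name rose, and all 8 were under 0.1 FPKM in every M7 library. Of the 5 with the phosphoadenosine phosphosulfate reductase name 3 rose, among them TRINITY_DN13518_c0_g1, which stood at 2.15, 1.86 and 5.39 FPKM in L1, at 68.3, 70.2 and 66.3 FPKM in L2 and at 0, 0 and 0 FPKM in M7. Sulfate transporters of the third family, which in Arabidopsis include carriers of vascular tissue and plastids, went both ways. Sulfate transporter 3.3 (TRINITY_DN1309_c0_g1) stood at 132, 136 and 215 FPKM in L1 and at 69.4, 70.3 and 69.5 FPKM in L2 (log2 fold change -1.16 ± 0.20 (SE), adjusted p = 0.00461 from limma and 0.252 with all 9 libraries fitted). A sulfate transporter 3.4 unigene chosen after its values were seen (TRINITY_DN11427_c0_g2) stood at 75.7, 71.7 and 32.5 FPKM in L1 and at 183, 196 and 212 FPKM in L2 (log2 fold change 1.79 ± 0.33 (SE), adjusted p = 0.00544 from limma). Without L1 replicate 3, 11 sulfur genes fell, and without L2 replicate 2, 4.

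Nitrogen genes showed a rise in 38 of 88 and a fall in 18, but 14 and 10 of the 47 M7-detected members. The median was 0.39 over the list and 0.04 over its M7-detected members. The cytosolic glutamine synthetase with the highest level of the list (TRINITY_DN1861_c0_g1), which joins ammonium to glutamate, stood at 755, 862 and 756 FPKM in L1 and at 493, 474 and 500.4 FPKM in L2 (log2 fold change -0.69 ± 0.12 (SE), adjusted p = 0.00408 from limma). The NRT1/PTR family, which moves nitrate, peptides and other solutes, held the named falls. NRT1/PTR FAMILY 5.6-like (TRINITY_DN12173_c0_g1) stood at 31.3, 32.9 and 47.5 FPKM in L1 and at 11.2, 11.1 and 11.3 FPKM in L2 (log2 fold change -1.62 ± 0.18 (SE), adjusted p = 6.93e-04 from limma). NRT1/PTR family protein 2.5 (TRINITY_DN1663_c0_g1) stood at 196, 205 and 426 FPKM in L1 and at 98.4, 100.05 and 92.3 FPKM in L2 (log2 fold change -1.40 ± 0.31 (SE), adjusted p = 0.0111 from limma), with L1 replicate 3 the highest, and without L2 replicate 3 its adjusted p was 0.0505. LOB domain-containing protein 38 (TRINITY_DN275_c0_g2), whose Arabidopsis counterpart is induced by nitrate and represses nitrate uptake genes, stood at 11.1, 10.2 and 6.52 FPKM in L1, at 40.7, 39.5 and 41.8 FPKM in L2 and at 40.4, 39.6 and 38.1 FPKM in M7 (log2 fold change 2.05 ± 0.20 (SE), adjusted p = 4.11e-04 from limma). Its L2 and M7 libraries overlapped.

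**Figure D5:**
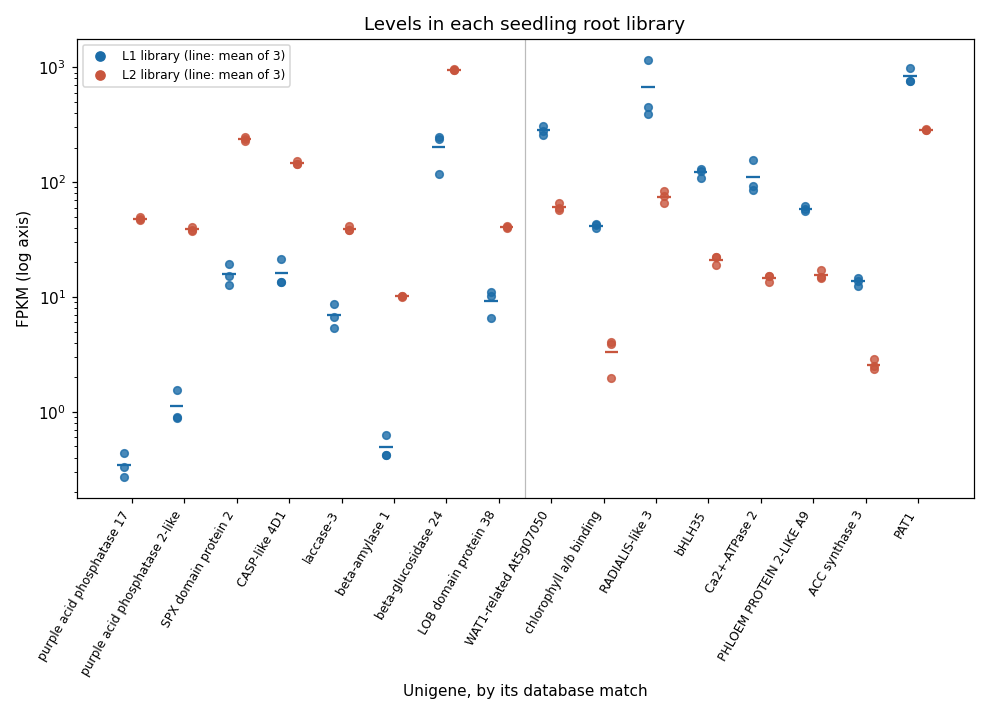
FPKM (log axis) of 16 named unigenes in each L1 library (blue) and each L2 library (red), with lines at the stage means. The 8 on the left rose and the 8 on the right fell, and the L2 points lie closer together than the L1 points for most of them.

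Photosynthesis genes, present at low levels in these roots, mostly fell. Of 38 tested members 21 fell and 2 rose, with a median of -0.81, and of 29 M7-detected members 16 fell and 2 rose. Their summed level was 376 to 430.2 FPKM in L1, 219 to 229 FPKM in L2 and 1774 to 3708 FPKM in M7. The seedling stages did not overlap in this sum. Most of the M7 sum lay in 1 unigene (TRINITY_DN22710_c0_g1), at 2913, 1196 and 2148 FPKM in M7. Chlorophyll a/b binding proteins hold the light-harvesting pigments. One of them (TRINITY_DN3204_c0_g1) stood at 43.0, 42.7 and 39.8 FPKM in L1, at 4.04, 3.93 and 1.97 FPKM in L2 and at 212, 76.5 and 43.6 FPKM in M7 (log2 fold change -3.35 ± 0.23 (SE), adjusted p = 1.31e-04 from limma). Another, of the LHCII type (TRINITY_DN1105_c0_g2), fell from 19.4, 20.6 and 48.1 FPKM to 0.60, 1.21 and 1.67 FPKM (log2 fold change -3.72 ± 0.40 (SE), adjusted p = 5.62e-04 from limma). The photosystem II protein PsbO (TRINITY_DN109510_c0_g1), part of the oxygen-evolving complex and the highest member, stood at 57.9, 53.3 and 51.8 FPKM in L1 and at 38.2, 39.01 and 38.8 FPKM in L2 (log2 fold change -0.48 ± 0.10 (SE), adjusted p = 0.00933 from limma and 0.15 with all 9 libraries fitted). One chlorophyll a/b binding unigene (TRINITY_DN22710_c0_g1) rose, from 12.6, 11.7 and 12.5 FPKM to 17.5, 21.1 and 17.6 FPKM (log2 fold change 0.57 ± 0.13 (SE), adjusted p = 0.0131 from limma and 0.182 with all 9 libraries fitted). Its rise did not pass under quantile normalization, with an adjusted p of 0.0751. Without L1 replicate 1 or any 1 of the L2 replicates, 1 member of the list rose.

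Sugar and reserve genes moved both ways. Of 67 sucrose and starch enzymes and sugar transporters 19 rose and 19 fell, with a median of 0.30 that became -0.05 under quantile normalization, and 11 and 9 of 43 M7-detected members did so. The rises and falls were 28.4% each, beside 30.9% and 18% of all tested unigenes, whose median went from 0.33 to -0.02. Without L2 replicate 3, 12 of the list fell. Beta-amylase 1 (TRINITY_DN12137_c0_g2), which releases maltose from starch in plastids, stood at 0.63, 0.42 and 0.42 FPKM in L1, at 9.95, 10.2 and 10.3 FPKM in L2 and at 1.21, 0.58 and 9.71 FPKM in M7 (log2 fold change 2.91, given with no test because it entered through L2 alone). It was below 1 FPKM in the 3 L1 libraries and near 10 FPKM in the 3 L2 libraries. Of 26 seed storage, oil body and late embryogenesis abundant (LEA) proteins, 4 rose and 7 fell, with a median of -0.36, but there were 4 rises and 1 falls among 14 M7-detected members, with a median of 0.15. Without L2 replicate 2 or 3, 4 fell, and without any 1 of the L2 replicates 2 rose. LEA proteins protect cells against drying. LEA protein D-29 (TRINITY_DN19555_c0_g1) stood at 16.3, 15.7 and 26.3 FPKM in L1 and at 0.60, 0.13 and 0.44 FPKM in L2 (log2 fold change -3.86, given with no test because it entered through L1 alone), and Lea14-A (TRINITY_DN31493_c0_g1) rose from 10.49, 7.10 and 1.63 FPKM to 68.4, 73.0 and 79.7 FPKM (log2 fold change 3.58 ± 0.53 (SE), adjusted p = 0.00229 from limma). L1 replicate 3 was the lowest L1 library for the latter, whose log2 fold change was 2.95 without it. An oleosin (TRINITY_DN106980_c0_g1), which coats oil bodies, stood at 3.12, 2.44 and 0.35 FPKM in L1 and at 21.8, 22.0 and 24.2 FPKM in L2 (log2 fold change 3.14 ± 0.43 (SE), adjusted p = 0.00153 from limma). Mitochondrial alternative oxidase 1d (TRINITY_DN2755_c0_g1), which takes electrons past the last pumps of the respiratory chain, stood at 68.2, 72.5 and 89.3 FPKM in L1 and at 21.1, 20.1 and 21.9 FPKM in L2 (log2 fold change -1.81 ± 0.14 (SE), adjusted p = 1.6e-04 from limma).

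Cell wall genes differed by family. Xyloglucan endotransglucosylase/hydrolases, which cut and rejoin the xyloglucan chains between cellulose fibrils, had 8 falls and 3 rises among 17, with a median of -0.74, and 5 and 3 among 13 M7-detected members, whose median was 0.04. Without L1 replicate 1 or 2 or L2 replicate 1, 5 fell. One of them (TRINITY_DN3517_c0_g1) stood at 29.6, 30.5 and 34.6 FPKM in L1 and at 8.52, 8 and 10.3 FPKM in L2 (log2 fold change -1.71 ± 0.14 (SE), adjusted p = 2.21e-04 from limma), and another (TRINITY_DN3398_c0_g3) stood at 82.6, 75.5 and 64.1 FPKM in L1 and at 34.3, 32.4 and 34.6 FPKM in L2 (log2 fold change -1.10 ± 0.13 (SE), adjusted p = 7.97e-04 from limma). Expansins loosen walls without cutting them, and 8 of 16 fell while 3 rose, with 3 rises and 3 falls among 10 M7-detected members. Their summed level was nonetheless 313 to 409 FPKM in L1 and 742 to 868 FPKM in L2, without overlap. The members behind that higher sum are not named here. Leaving out L1 replicate 2 or L2 replicate 1, 2 or 3 left 5, 4, 3 and 3 falls. An expansin-like protein (TRINITY_DN17516_c0_g1) stood at 124, 122 and 119 FPKM in L1 and at 71.0, 76.5 and 78.0 FPKM in L2 (log2 fold change -0.69 ± 0.10 (SE), adjusted p = 0.00181 from limma). Pectin-modifying enzymes had 15 rises and 12 falls among 61, and 13 rises and 5 falls among 47 M7-detected members. A pectinesterase unigene (TRINITY_DN3398_c0_g2), whose product removes methyl groups from pectin, stood at 70.5, 68.9 and 48.3 FPKM in L1 and at 134, 133 and 138 FPKM in L2 (log2 fold change 1.11 ± 0.17 (SE), adjusted p = 0.00239 from limma).

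Genes of lignin and of wall barriers held single large rises within lists that on balance had more falls. Of 81 monolignol enzymes, laccases and dirigent proteins 13 rose and 27 fell, with a median of -0.04, and of 55 M7-detected members 11 rose and 9 fell. Without L2 replicates 1, 2 and 3 in turn, 17, 17 and 15 fell and 8, 9 and 8 rose. Laccase-3 (TRINITY_DN2803_c0_g1), of a family that oxidises monolignols in the wall, stood at 8.71, 6.69 and 5.37 FPKM in L1, at 38.4, 41.1 and 38.2 FPKM in L2 and at 1.11, 1.26 and 0.33 FPKM in M7 (log2 fold change 2.37 ± 0.18 (SE), adjusted p = 1.65e-04 from limma). Dirigent proteins steer the coupling of monolignols, and they went both ways. One (TRINITY_DN35085_c0_g1) rose from 3.15, 5.54 and 2.95 FPKM to 25.8, 23.1 and 23.7 FPKM (log2 fold change 2.41 ± 0.22 (SE), adjusted p = 3.31e-04 from limma), and another (TRINITY_DN273_c0_g1) fell from 182, 203 and 240.1 FPKM to 65.6, 53.7 and 57.1 FPKM (log2 fold change -1.80 ± 0.15 (SE), adjusted p = 2.05e-04 from limma). Class III peroxidases, which form and use hydrogen peroxide in the wall, had 19 falls and 8 rises among 46, but 5 and 8 among 25 M7-detected members. Peroxidase 72-like (TRINITY_DN3579_c0_g1) rose from 31.6, 29.0 and 22.6 FPKM to 123, 123 and 137 FPKM (log2 fold change 2.17 ± 0.15 (SE), adjusted p = 1.31e-04 from limma), and peroxidase 5-like (TRINITY_DN3827_c0_g2) fell from 21.3, 20.3 and 23.4 FPKM to 4.96, 3.67 and 4.82 FPKM (log2 fold change -2.05 ± 0.16 (SE), adjusted p = 1.64e-04 from limma). Peroxidase 42 (TRINITY_DN18096_c1_g1) had the highest level of the list, standing at 6368, 7217 and 9429 FPKM in L1 and at 5183, 4940.2 and 5621 FPKM in L2, and did not pass the test (log2 fold change -0.53 ± 0.22 (SE), adjusted p = 0.092 from limma), with a log2 fold change of 0.0767 under quantile normalization. It passed as a fall without L1 replicate 3, with an adjusted p of 0.038 from limma, with a filter on a mean of 1 FPKM at 0.0371 and with a robust prior at 0.0418.

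The list of suberin, Casparian strip, GDSL lipase and lipid transfer proteins had 17 rises and 23 falls among 107, and 14 and 13 among 80 M7-detected members. Without L1 replicate 3, 26 rose. Without L2 replicates 1, 2 and 3 in turn, 9, 10 and 10 rose, and without L2 replicate 1, 15 fell. CASP-like protein 4D1 (TRINITY_DN12070_c0_g2), of a wider membrane protein family to which the scaffold proteins of the Casparian strip belong, stood at 21.6, 13.6 and 13.6 FPKM in L1, at 145, 143 and 153 FPKM in L2 and at 2.86, 0.81 and 2.15 FPKM in M7 (log2 fold change 3.13 ± 0.19 (SE), adjusted p = 1.04e-04 from limma). Casparian strip membrane protein 1 itself (TRINITY_DN13496_c0_g3) went the other way, from 13.6, 11.7 and 10.2 FPKM to 3.06, 2.94 and 3.93 FPKM (log2 fold change -1.57 ± 0.18 (SE), adjusted p = 7.3e-04 from limma), and was listed at 0 in the 3 M7 libraries. The lipid transfer protein matched to DIR1 (TRINITY_DN16854_c0_g1), which in Arabidopsis takes part in systemic resistance, stood at 126, 111 and 119 FPKM in L1 and at 379, 364 and 404 FPKM in L2 (log2 fold change 1.68 ± 0.11 (SE), adjusted p = 1.12e-04 from limma). Another lipid transfer protein (TRINITY_DN20800_c0_g2) fell from 12.9, 12.3 and 27.2 FPKM to 0.42, 1.93 and 0.82 FPKM (log2 fold change -3.14 ± 0.40 (SE), adjusted p = 0.00124 from limma).

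Energy and protein turnover lists were wide, with many rises and many falls. The citrate cycle and respiratory chain had 69 rises and 45 falls among 183, but 3 and 9 among 60 M7-detected members, and 27 falls without L2 replicate 2. Glycolytic enzymes had 21 and 14 among 51, 6 and 4 among 23 M7-detected members, and 9 falls without L2 replicate 1. Proteasome subunits, which form the protease that degrades ubiquitin-tagged proteins, had 45 and 39 among 113, and 3 and 5 among 34 M7-detected members. They too differed by match group. Of 21 proteasome unigenes matched to Caryophyllales 20 fell and none rose, while of 21 matched to Quercus suber 15 rose and 5 fell.

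Among growth genes, histones fell most often. Of 47 core and linker histones 26 fell and 8 rose, with a median of -0.81, and 11 and 1 of 24 M7-detected members did so. Without L2 replicates 1, 2 and 3 in turn, 14, 11 and 17 fell. Histone H3.3 (TRINITY_DN11031_c0_g1), a variant laid down outside replication and the highest of the list, stood at 1477, 1651 and 2003 FPKM in L1 and at 901, 889 and 1030.1 FPKM in L2 (log2 fold change -0.85 ± 0.17 (SE), adjusted p = 0.00691 from limma). Histone H2A.1 (TRINITY_DN16078_c0_g1) stood at 155, 218 and 339 FPKM in L1 and at 87.2, 85.4 and 77.5 FPKM in L2 (log2 fold change -1.43 ± 0.28 (SE), adjusted p = 0.00727 from limma). Both were higher in every L1 library. A second H3.3 unigene (TRINITY_DN117325_c0_g1) was listed at 0 in all L1 and M7 libraries and stood at 17.1, 22.6 and 21.1 FPKM in L2. Cyclins, kinesins and other mitotic proteins had 22 rises and 24 falls among 101, and 6 and 14 among 59 M7-detected members. The spindle checkpoint protein MAD2 (TRINITY_DN15136_c0_g1), which delays chromosome separation until all chromosomes are attached, stood at 62.0, 62.5 and 84.8 FPKM in L1 and at 21.1, 21.4 and 19.2 FPKM in L2 (log2 fold change -1.70 ± 0.16 (SE), adjusted p = 3.1e-04 from limma). DNA replication proteins had 7 rises and 6 falls among 43, 2 rises and 5 falls among 33 M7-detected members, and 2 falls without L1 replicate 2, 10 without L1 replicate 3 and 1, 1 and 2 without L2 replicates 1, 2 and 3. Rises numbered 4 without any 1 of the L2 replicates.

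Cytosolic ribosomal proteins showed how much a list depended on unigenes that M7 lacked. Of 366 tested members 92 rose and 160 fell, with a median of -0.54, and 272 were under 0.1 FPKM in every M7 library. The summed level of the list was nonetheless higher in L2, at 16667.8 to 21386 FPKM in L1 and 21712.5 to 24162.2 FPKM in L2, without overlap. Of the 94 M7-detected members 9 rose and 4 fell, with a median of 0.24. The 40S protein S8-like (TRINITY_DN20837_c0_g1) was listed at 0 in all L1 and M7 libraries and stood at 34.5, 48.1 and 48.4 FPKM in L2, while the 60S protein L2-like (TRINITY_DN38773_c0_g1) stood at 17.1, 33.9 and 15.8 FPKM in L1 and at 0.10, 0.29 and 0.09 FPKM in L2 and was listed at 0 in M7. The 41 ribosomal unigenes matched to Caryophyllales had a median of -1.56 with 33 falls, and the 79 matched to Quercus suber one of 0.09 with 31 rises and 32 falls. Tubulins and actins had 12 rises and 15 falls among 53, and 2 and 3 among 20 M7-detected members. Their summed level was 3910 to 5318 FPKM in L1 and 5537 to 5776 FPKM in L2, also without overlap. A tubulin alpha chain (TRINITY_DN3150_c0_g3) stood at 295, 297 and 276 FPKM in L1 and at 166, 159 and 169.7 FPKM in L2 (log2 fold change -0.81 ± 0.10 (SE), adjusted p = 0.00103 from limma and 0.333 with all 9 libraries fitted).

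Water and solute transporters included large changes both ways. Aquaporins had 9 rises and 8 falls among 31, but 1 and 2 among 13 M7-detected members, and without any 1 of the L2 replicates 4 fell. Of 12 matched to Quercus suber 8 rose and 4 fell, and all 12 were under 0.1 FPKM in every M7 library. The DEG limits were passed by 4 aquaporins that rose, not named here, and by 0 that fell. Aquaporin PIP1-3-like (TRINITY_DN2924_c0_g2), a plasma membrane water channel and the highest of the list, stood at 1004, 1101 and 839 FPKM in L1, at 546, 538 and 608 FPKM in L2 and at 709, 724 and 845 FPKM in M7 (log2 fold change -0.79 ± 0.15 (SE), adjusted p = 0.00602 from limma). The M7 libraries lay above L2, and the highest of them overlapped L1. Amino acid, oligopeptide and WAT1-family transporters had 16 rises and 22 falls among 69, 11 rises and 12 falls among 49 M7-detected members, and 10 rises without any 1 of the L2 replicates. The WAT1 family is named for an Arabidopsis vacuolar auxin exporter needed for thick secondary walls. A unigene matched to At5g07050 (TRINITY_DN117127_c0_g1) stood at 311, 279.5 and 259 FPKM in L1, at 65.5, 57.5 and 59.3 FPKM in L2 and at 0.94, 1.24 and 2.32 FPKM in M7 (log2 fold change -2.20 ± 0.12 (SE), adjusted p = 7.49e-05 from limma), and a second WAT1-related unigene (TRINITY_DN14635_c0_g1) stood at 68.8, 80.0 and 100.3 FPKM in L1, at 5.70, 6.60 and 5.88 FPKM in L2 and at 0, 0.25 and 0 FPKM in M7 (log2 fold change -3.56 ± 0.17 (SE), adjusted p = 5.35e-05 from limma). Both were lower in L2 than in L1 and lower again in M7. Lysine histidine transporter 1 (TRINITY_DN1622_c0_g1), an amino acid importer of Arabidopsis roots, went up, from 6.57, 5.51 and 5.25 FPKM to 35.1, 41.5 and 26.9 FPKM (log2 fold change 2.37 ± 0.19 (SE), adjusted p = 2.01e-04 from limma). The SKOR-like potassium channel (TRINITY_DN3195_c0_g1), which in Arabidopsis releases potassium into the xylem, stood at 17.3, 18.4 and 32.2 FPKM in L1 and at 5.76, 6.63 and 5.38 FPKM in L2 (log2 fold change -1.72 ± 0.26 (SE), adjusted p = 0.00231 from limma).

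Among hormone lists, ethylene and jasmonate genes had the largest shares of falls. Auxin, abscisic acid and brassinosteroid genes also fell more often than they rose, and gibberellin genes rose more often. Cytokinin genes were near even, with 29.4% up and 26.5% down beside 30.9% and 18% of all tested unigenes. For gibberellin genes these were 37.5% and 25%, and for auxin genes 13% and 18.5%. Of 38 brassinosteroid and sterol genes 9 rose and 12 fell, with 5 rises and 3 falls among 22 M7-detected members. Without L1 replicate 3, 14 of that list rose and 13 fell. Auxin genes had 12 rises and 17 falls among 92, with a median of -0.01, and 12 and 7 among 71 M7-detected members. Falls numbered 27 without L1 replicate 3 and 11 without L2 replicate 1, and rises 7 without L2 replicate 2. PIN-LIKES 2 (TRINITY_DN28607_c0_g1), of a family of auxin carriers in the endoplasmic reticulum, stood at 0.84, 0.71 and 0.32 FPKM in L1, at 17.2, 15.4 and 15.3 FPKM in L2 and at 0.58, 0.50 and 2.64 FPKM in M7 (log2 fold change 3.40, given with no test because it entered through L2 alone). An auxin-responsive protein (TRINITY_DN13529_c0_g1) rose from 29.5, 26.1 and 33.4 FPKM to 90.5, 103 and 93.2 FPKM (log2 fold change 1.66 ± 0.13 (SE), adjusted p = 1.82e-04 from limma), and auxin response factor 18-like (TRINITY_DN1735_c0_g4) fell from 19.8, 21.0 and 17.6 FPKM to 6.04, 4.48 and 4.26 FPKM (log2 fold change -1.80 ± 0.17 (SE), adjusted p = 3.39e-04 from limma). Cytokinin genes had 10 rises and 9 falls among 34, and 5 rises and 5 falls among 21 M7-detected members. LOG3 (TRINITY_DN10489_c0_g2), of the enzymes that activate cytokinins, stood at 21.8, 18.5 and 26.5 FPKM in L1 and at 6.55, 7.62 and 6.41 FPKM in L2 (log2 fold change -1.55 ± 0.17 (SE), adjusted p = 6.31e-04 from limma). The response regulator-like APRR5 (TRINITY_DN2048_c0_g1), which in Arabidopsis is part of the circadian clock, stood at 17.3, 17.7 and 17.8 FPKM in L1 and at 59.1, 60.5 and 61.5 FPKM in L2 (log2 fold change 1.72 ± 0.10 (SE), adjusted p = 8.36e-05 from limma and 0.0792 with all 9 libraries fitted), and the time of day of sampling was not given in the sources used here.

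Gibberellin genes had 12 rises and 8 falls among 32, and 8 and 3 among 18 M7-detected members, with 5 falls without L2 replicate 1 or 3. Gibberellin 20 oxidase 1 (TRINITY_DN16811_c0_g1), which makes the precursors of active gibberellins, stood at 16.0, 13.7 and 4.15 FPKM in L1 and at 1.25, 1.26 and 1.29 FPKM in L2 (log2 fold change -2.26 ± 0.46 (SE), adjusted p = 0.0085 from limma), and gibberellin-regulated protein 14-like (TRINITY_DN13458_c0_g1) stood at 32.6, 42.7 and 73.9 FPKM in L1 and at 9.86, 10.7 and 7.03 FPKM in L2 (log2 fold change -2.25 ± 0.32 (SE), adjusted p = 0.00196 from limma). Both fell, and both were under 1 FPKM in M7. Ethylene genes fell in 12 and rose in 4 of 36, but in 4 and 4 of 21 M7-detected members. Rises numbered 1, 2 and 1 without L2 replicates 1, 2 and 3. A unigene of 1-aminocyclopropane-1-carboxylate synthase 3 (TRINITY_DN35635_c0_g4), the enzyme that commits methionine to ethylene, stood at 13.8, 14.7 and 12.4 FPKM in L1 and at 2.34, 2.89 and 2.51 FPKM in L2 (log2 fold change -2.03 ± 0.15 (SE), adjusted p = 1.6e-04 from limma). Jasmonate genes fell in 17 of 43 and rose in 4, with 3 rises and 6 falls among 22 M7-detected members. The list had 27 falls without L1 replicate 3 and 2 rises without any 1 of the L2 replicates. The repressor TIFY 5A-like (TRINITY_DN31583_c0_g1) was the highest of them at 2415, 2498 and 1954 FPKM in L1, at 652, 611 and 675 FPKM in L2 and at 4.99, 43.0 and 64.0 FPKM in M7 (log2 fold change -1.82 ± 0.15 (SE), adjusted p = 2.18e-04 from limma and 0.0882 with all 9 libraries fitted). Abscisic acid genes had 13 rises and 17 falls among 65, 7 rises and 6 falls among 43 M7-detected members, and 10 falls without L2 replicate 2 or 3. Of 8 carotenoid and strigolactone genes 3 rose and none fell, 2 of 5 M7-detected members rose, and 1 fell without L1 replicate 3. Strigolactones are exuded by roots and also act as hormones. The esterase D14-like (TRINITY_DN17808_c0_g1), of the receptor family, stood at 64.9, 72.0 and 31.7 FPKM in L1, at 142, 139.7 and 141 FPKM in L2 and at 0, 0 and 0.06 FPKM in M7 (log2 fold change 1.40 ± 0.31 (SE), adjusted p = 0.0113 from limma).

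Of the transcription factor lists, all but AP2/ERF had more falls than rises. The MYB list had the largest share of falls among them, 40.4% beside 18% of all tested unigenes. Of 47 MYB and RADIALIS-like factors 19 fell and 4 rose, with a median of -0.31, and 15 of 39 M7-detected members fell and 4 rose. RADIALIS-like proteins are short MYB proteins named for a regulator of flower symmetry in Antirrhinum. RADIALIS-like 3 (TRINITY_DN24929_c1_g1) stood at 393, 449 and 1164 FPKM in L1, at 66.2, 75.3 and 83.3 FPKM in L2 and at 0, 5.10 and 3.08 FPKM in M7 (log2 fold change -2.97 ± 0.42 (SE), adjusted p = 0.00178 from limma), and a second RADIALIS-like unigene (TRINITY_DN24929_c0_g1) stood at 117, 100.4 and 114 FPKM in L1 and at 13.7, 12.4 and 17.8 FPKM in L2 (log2 fold change -2.85 ± 0.16 (SE), adjusted p = 8.47e-05 from limma). The transcription repressor MYB5 (TRINITY_DN3185_c0_g1) fell from 40.7, 48.1 and 75.2 FPKM to 8.74, 6.52 and 9.04 FPKM (log2 fold change -2.58 ± 0.26 (SE), adjusted p = 4.33e-04 from limma). L1 replicate 3 was the highest library for RADIALIS-like 3 and MYB5 and not for the second RADIALIS-like unigene. NAC factors fell in 12 and rose in 4 of 42, with 4 rises and 4 falls among 28 M7-detected members. NAC rises numbered 1 without L1 replicate 2, 7 without L1 replicate 3 and 0, 0 and 1 without L2 replicates 1, 2 and 3. NAC domain-containing protein 83-like (TRINITY_DN1218_c0_g2) stood at 131, 134 and 202 FPKM in L1 and at 45.4, 45.3 and 49.4 FPKM in L2 (log2 fold change -1.69 ± 0.19 (SE), adjusted p = 7.08e-04 from limma and 0.0774 with all 9 libraries fitted). Among 65 bHLH factors 19 fell and 11 rose, with 11 rises and 15 falls among 55 M7-detected members and with 7 rises without L2 replicate 1 or 2. The bHLH25-like factor with the highest level (TRINITY_DN1609_c0_g1) stood at 428, 449 and 413 FPKM in L1 and at 128, 125 and 121 FPKM in L2 (log2 fold change -1.78 ± 0.10 (SE), adjusted p = 8.18e-05 from limma), and bHLH35 (TRINITY_DN1448_c0_g1) stood at 109, 126 and 131 FPKM in L1 and at 22.1, 22.5 and 18.9 FPKM in L2 (log2 fold change -2.47 ± 0.13 (SE), adjusted p = 6.86e-05 from limma).

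AP2/ERF factors were even, with 21 rises and 21 falls among 83, 17 rises and 14 falls among 60 M7-detected members, and 12, 12 and 10 rises without L2 replicates 1, 2 and 3 in turn. ERF109 (TRINITY_DN1369_c0_g1), known in Arabidopsis as a stress and wound factor of roots, had one of the highest levels of any factor, at 3743, 3487 and 3169.5 FPKM in L1, at 2115, 1976 and 2036 FPKM in L2 and at 0, 2.66 and 1.33 FPKM in M7 (log2 fold change -0.76 ± 0.15 (SE), adjusted p = 0.0073 from limma and 0.176 with all 9 libraries fitted). It was near 0 in M7, and its fall in L2 did not pass without L2 replicate 2, with an adjusted p of 0.0508, nor under quantile normalization. WRKY factors, which act largely in defence, had 8 rises and 12 falls among 42, 8 rises and 7 falls among 32 M7-detected members, and 5, 4 and 5 rises without L2 replicates 1, 2 and 3. WRKY33 (TRINITY_DN2030_c0_g1) stood at 315, 309.7 and 361 FPKM in L1 and at 179, 173 and 177 FPKM in L2 (log2 fold change -0.89 ± 0.11 (SE), adjusted p = 0.00105 from limma and 0.0823 with all 9 libraries fitted). GRAS and LOB-domain factors had 9 rises and 11 falls among 41, 7 rises and 8 falls among 33 M7-detected members, and 7 falls without L2 replicate 1 or 2. The scarecrow-like factor PAT1 (TRINITY_DN11157_c0_g1), which in Arabidopsis transmits phytochrome A signals, stood at 760.0, 763 and 980.1 FPKM in L1 and at 286, 286 and 289 FPKM in L2 (log2 fold change -1.53 ± 0.14 (SE), adjusted p = 3.15e-04 from limma). Homeobox factors had 8 rises and 14 falls among 58, and 6 rises and 6 falls among 40 M7-detected members. WUSCHEL-related homeobox 4 (TRINITY_DN13556_c0_g1), which maintains the vascular cambium in Arabidopsis, stood at 76.7, 78.1 and 110.1 FPKM in L1 and at 49.3, 42.3 and 47.0 FPKM in L2 (log2 fold change -0.90 ± 0.17 (SE), adjusted p = 0.00624 from limma). Without L2 replicates 1, 2 and 3, homeobox rises numbered 3, 3 and 5 and falls 7, 6 and 6, and without L1 replicate 2, 8 fell.

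Calcium signalling genes had 31 rises and 47 falls among 125, and 11 and 26 among 78 M7-detected members. Without L2 replicate 2, 31 fell. Calmodulin-like (CML) proteins bind calcium and pass the signal on. CML19 (TRINITY_DN114295_c0_g1), the highest of the list, stood at 896, 826 and 663 FPKM in L1, at 424, 429.6 and 466 FPKM in L2 and at 1.30, 4.14 and 7.89 FPKM in M7 (log2 fold change -0.84 ± 0.15 (SE), adjusted p = 0.00499 from limma and 0.156 with all 9 libraries fitted). CML16 (TRINITY_DN118371_c0_g1) stood at 37.3, 44.0 and 69.2 FPKM in L1 and at 5.83, 4.85 and 4.63 FPKM in L2 (log2 fold change -3.02 ± 0.25 (SE), adjusted p = 2.05e-04 from limma), and CML41 (TRINITY_DN12297_c0_g1) stood at 36.1, 38.99 and 66.9 FPKM in L1 and at 9.50, 9.35 and 11.04 FPKM in L2 (log2 fold change -2.09 ± 0.25 (SE), adjusted p = 9.24e-04 from limma). The plasma membrane calcium pump, calcium-transporting ATPase 2 (TRINITY_DN1639_c0_g1), fell with them, from 84.8, 92.2 and 157 FPKM to 15.2, 15.4 and 13.4 FPKM (log2 fold change -2.79 ± 0.25 (SE), adjusted p = 2.72e-04 from limma). For CML16, CML41 and the pump the highest library was L1 replicate 3. Leucine-rich repeat receptor kinases had 37 rises and 19 falls among 130, with a median of 0.32 that became -0.02 under quantile normalization, both next to the median of all unigenes. They had 27 rises and 13 falls among 106 M7-detected members, and 22, 22 and 23 rises without L2 replicates 1, 2 and 3. One of them (TRINITY_DN3788_c3_g1) stood at 17.8, 8.17 and 3.18 FPKM in L1 and at 88.6, 86.3 and 64.1 FPKM in L2 (log2 fold change 3.15 ± 0.53 (SE), adjusted p = 0.00384 from limma).

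Tissue markers were few, and they checked the label of root only in part. Of 11 phloem markers 8 fell and none rose, with a median of -1.37. Their summed level was 265 to 306 FPKM in L1, 91.9 to 106 FPKM in L2 and 30.3 to 58.5 FPKM in M7. Of the 7 M7-detected members 4 fell, and without L2 replicate 1, 5 of the list fell. PHLOEM PROTEIN 2-LIKE A9 (TRINITY_DN19418_c0_g1), of a lectin family first known from phloem sap, stood at 135, 151 and 109 FPKM in L1 and at 42.0, 55.5 and 53.5 FPKM in L2 (log2 fold change -1.37 ± 0.18 (SE), adjusted p = 0.00122 from limma and 0.0823 with all 9 libraries fitted), and a second such unigene (TRINITY_DN3643_c0_g1) stood at 57.8, 61.8 and 56.3 FPKM in L1 and at 14.5, 15.04 and 17.3 FPKM in L2 (log2 fold change -1.85 ± 0.12 (SE), adjusted p = 1.1e-04 from limma). SIEVE ELEMENT OCCLUSION B-like (TRINITY_DN3786_c0_g1), a filament protein of sieve elements, stood at 58.8, 56.9 and 55.7 FPKM in L1 and at 20.5, 19.8 and 20.9 FPKM in L2 (log2 fold change -1.44 ± 0.10 (SE), adjusted p = 1.27e-04 from limma). In all 3 of them every L2 library lay below every L1 library. Endodermis markers summed to 43.1 to 52.5 FPKM in L1 and 30.2 to 33.7 FPKM in L2, with 2 of 9 that fell. Xylem markers summed to 19.5 to 26.8 FPKM and 22.6 to 25.9 FPKM, which overlap, with 1 of 4 that fell. The 3 root meristem markers did not pass the test, at sums of 10.7 to 11.9 FPKM and 8.94 to 10.8 FPKM. The 4 unigenes with the ROOT HAIR DEFECTIVE name summed to 25.2 to 67.7 FPKM in L1 and 97.4 to 109 FPKM in L2, without overlap. They were chosen by that name alone, which does not make them 1 protein family. Of these, 1 rose, and the median was 0.77. Without L1 replicate 1 or 3, 2 of them rose, and without L1 replicate 2 or any 1 of the L2 replicates none did. Whether the share of these tissues in the sampled roots differed was not tested.

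Specialised metabolism showed single unigenes with large changes in lists of which some went both ways and some leaned one way. Beta-glucosidases, which free the aglycone of stored glycosides, had 6 rises and 6 falls among 21 and 6 rises and 5 falls among 17 M7-detected members, yet their summed level was 846 to 1189 FPKM in L1 and 4196 to 4275 FPKM in L2. Beta-glucosidase 24 (TRINITY_DN2169_c0_g2) stood at 249, 236 and 118 FPKM in L1, at 949, 964 and 952 FPKM in L2 and at 12334, 6367 and 3629.5 FPKM in M7 (log2 fold change 2.32 ± 0.30 (SE), adjusted p = 0.00121 from limma). The order of the stages for it was L1, L2 and M7, with no overlap. It held only part of the summed level of the list in L2, and the members that held the rest are not named here. Of 38 iridoid and strictosidine-synthase-like genes 9 rose and 10 fell, with 6 rises and 8 falls among 29 M7-detected members, and 6 fell without L2 replicate 1 or 2. UDP-glycosyltransferases had 26 rises and 21 falls among 108, 19 rises and 9 falls among 79 M7-detected members, with 11, 12 and 12 falls without L2 replicates 1, 2 and 3 and 17 rises without replicate 1. The highest of them, 7-deoxyloganetin glucosyltransferase-like (TRINITY_DN28006_c0_g1), stood at 106, 112 and 97.6 FPKM in L1 and at 352, 357 and 364 FPKM in L2 (log2 fold change 1.75 ± 0.10 (SE), adjusted p = 9.45e-05 from limma). Of 34 squalene and triterpene enzymes 11 rose and 3 fell, with 7 rises and 2 falls among 26 M7-detected members. The rises were 32.4%, near the 30.9% of all tested unigenes, and the falls 8.82% beside 18%. Cytochrome P450 enzymes, which oxidise many plant products, had 37 rises and 16 falls among 101, and 16 rises and 8 falls among 61 M7-detected members. Over the whole P450 list these were 36.6% and 15.8%, beside 30.9% and 18% of all tested unigenes. Of 13 mono- and sesquiterpene synthases none rose and 5 fell, 4 of 8 M7-detected members fell, and 1 rose without L1 replicate 3 or L2 replicate 3. The mevalonate pathway had the highest median of the function lists with at least 10 tested members, 0.87, with 8 rises and 2 falls among 13, and 1, 1, 0 and 1 falls without L1 replicate 2 and L2 replicates 1, 2 and 3. Of those 8 rises 6 were matched to Quercus suber, and 2 of 6 M7-detected members rose. Farnesyl pyrophosphate synthase (TRINITY_DN2830_c0_g1), whose product feeds squalene, passed the test with 157, 159 and 94.3 FPKM in L1, at 244, 239.9 and 249 FPKM in L2 and at 67.0, 386 and 304 FPKM in M7 (log2 fold change 0.87 ± 0.22 (SE), adjusted p = 0.0184 from limma and 0.276 with all 9 libraries fitted). Without L2 replicates 1, 2 and 3 in turn its adjusted p was 0.0676, 0.0651 and 0.0686.

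Pathogenesis-related proteins, glutathione transferases and protease inhibitors fell more often than they rose, and heat shock and symbiosis genes did not. Of 126 pathogenesis-related proteins, chitinases and germins 24 rose and 42 fell, with a median of -0.27, against 15 and 19 of 77 M7-detected members. A pair of pathogenesis-related protein 1 unigenes moved apart. One (TRINITY_DN10473_c0_g2) stood at 62.6, 55.9 and 103 FPKM in L1 and at 2.78, 2.29 and 2.89 FPKM in L2 (log2 fold change -4.31 ± 0.25 (SE), adjusted p = 8.93e-05 from limma), and the other (TRINITY_DN2143_c1_g1) stood at 7.07, 4.54 and 1.68 FPKM in L1 and at 29.3, 29.8 and 23.4 FPKM in L2 (log2 fold change 2.52 ± 0.41 (SE), adjusted p = 0.00316 from limma). Thaumatin-like protein 1b (TRINITY_DN16504_c0_g2), of a family with antifungal members, was below 1 FPKM in L1 and M7 and stood at 29.6, 27.2 and 32.2 FPKM in L2 (log2 fold change 4.66, given with no test because it entered through L2 alone). Glutathione transferases and antioxidant enzymes had 28 rises and 38 falls among 121, 2 and 13 among 54 M7-detected members, and 24 falls without L2 replicate 1 or 2. Glutathione S-transferase U19-like (TRINITY_DN18811_c0_g2), of a plant family that couples glutathione to foreign compounds, stood at 48.4, 47.1 and 43.2 FPKM in L1 and at 8.22, 6.65 and 9.09 FPKM in L2 (log2 fold change -2.40 ± 0.15 (SE), adjusted p = 9.89e-05 from limma). Protease inhibitors fell in 6 and rose in 1 of 17, and among the 3 M7-detected members none rose or fell. Heat shock proteins had 25 rises and 24 falls among 73, and 12 and 4 among 36 M7-detected members. Genes named for symbiosis and nodulins had 10 rises and 3 falls among 33, and 4 rises and 0 falls among 22 M7-detected members. Over the whole list these were 30.3% and 9.09%, beside 30.9% and 18% of all tested unigenes. Without L1 replicate 2, 5 of the list rose, without L1 replicate 3, 9 fell, and without L2 replicates 1, 2 and 3, 5, 4 and 5 rose.

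The largest changes of all described unigenes were of genes that M7 lacked. Of the 15 largest rises 14 were under 0.1 FPKM in every M7 library, and 9 were matched to Quercus suber or barley. The first was a unigene matched to actin 11 of Sesuvium (TRINITY_DN3594_c1_g2), at 0, 0.05 and 0 FPKM in L1, at 172, 204 and 184 FPKM in L2 and at 0, 0 and 0 FPKM in M7. Calmodulin-7-like (TRINITY_DN109722_c0_g1) was listed at 0 in all L1 and M7 libraries and stood at 91.2, 99.1 and 96.9 FPKM in L2, and the cyclophilin CYP18-2 (TRINITY_DN16935_c0_g1), a protein-folding enzyme, was likewise at 0 and stood at 85.1, 91.6 and 101 FPKM. These name proteins that nearly every eukaryotic cell uses. The unigene matched to LUTEIN DEFICIENT 5 (TRINITY_DN2047_c0_g2), a carotenoid hydroxylase in Arabidopsis, stood at 0, 0 and 0.15 FPKM in L1 and at 109, 108 and 101 FPKM in L2 and was listed at 0 in M7. All 15 largest falls were under 0.1 FPKM in every M7 library, and 12 of them were named hypothetical proteins. The largest (TRINITY_DN21252_c0_g1) stood at 238, 238 and 839.8 FPKM in L1 and at 0, 0 and 2.36 FPKM in L2 (log2 fold change -7.92 ± 0.69 (SE), adjusted p = 2.51e-04 from limma), with L1 replicate 3 the highest, and its log2 fold change without that library was -7.32. The unigene matched to Protein TAR1 (TRINITY_DN14739_c0_g1), which in yeast is encoded opposite the ribosomal RNA gene, stood at 407, 485 and 1268 FPKM in L1 and at 8.61, 17.4 and 10.48 FPKM in L2 (log2 fold change -5.64 ± 0.48 (SE), adjusted p = 2.32e-04 from limma), and a further hypothetical protein (TRINITY_DN3760_c0_g1) at 1488, 1557 and 1982 FPKM in L1 and at 19.0, 20.3 and 41.4 FPKM in L2 (log2 fold change -5.99 ± 0.31 (SE), adjusted p = 6.93e-05 from limma). What these transcripts are was not tested.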

How the data were processed

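Wild-type roots of D. asperoides were sequenced at 3 stages, and the 6 seedling libraries were compared. The authors filtered the reads, assembled them de novo with Trinity, estimated levels with RSEM per the labels, and deposited FPKM values with 2 decimals for 9 libraries with the stage means. Their methods name both FPKM and TPM, which these values do not tell apart. The summed FPKM was 611088 to 695070 per library. Raw counts were not used here, and the absolute depth is unknown. Low values that were nearly equal in a pair of libraries were 5.9% to 9.8% higher in L2 than in L1 replicate 1 at the median. RSEM counts need not be whole, and no count model was run. With these values no counting interval was given, and precision rests on the spread of 3 libraries.

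Columns were tied to samples by title. Unigenes that reached 1 FPKM in any 3 seedling libraries were tested on log2(FPKM + 1) with limma 3.58.1 in R 4.3.3, as a mean per stage with a trended prior variance, two-sided, with Benjamini-Hochberg adjustment over 32633 unigenes. The fit pools 1 variance over stages whose spreads differ, and one with a variance per stage was an alternative. The procedure was tested on simulated data. The labels call the replicates biological.

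Named unigenes were, per list, the 3 largest rises and falls with an adjusted p under 0.05, a stage mean of at least 10 FPKM and no overlap of libraries, the member with the highest level, and from all described unigenes the 15 largest rises and falls. The text names part of them. Function lists were made from words in the descriptions. The members, lists and tests were chosen with earlier results of these data known, and list words were revised after descriptions had been read. A unigene is not a gene of a genome, and near-identical copies can share reads. The unigene sequences were not used here.

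Alternatives were pseudocounts of 0.1 and 5, other filters, 2 rescalings, other variance models, all 9 libraries, a replicate block, match groups left out, each library left out and other DEG limits. The restriction to M7-detected unigenes was chosen after seeing the data.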

Additional observations from a re-analysis of the deposited data

How the results depend on the processing

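The counts of unigenes that rose and fell were within 1.5 times the reported 10074 and 5869 under most alternatives. They were 2446 and 2140 with a mean over the 6 libraries of at least 5 FPKM, where fewer unigenes were tested. With the fit and adjustment repeated on M7-detected unigenes alone, an alternative chosen after seeing the data, 3195 rose and 1713 fell, with 100 DEGs that rose and 71 that fell, again over fewer unigenes. Without the Caryophyllales, Quercus suber and Hordeum matches 3865 fell. For DEGs, counting a unigene by its highest single library over 30 FPKM gave 218 that fell, a stage mean over 10 FPKM gave 1120 that rose and 470 that fell, and an absolute log2 fold change over 1 gave 520 and 479. Leaving out each library in turn gave 7929 to 11155 unigenes that rose, 4187 to 7024 that fell, 252 to 370 DEGs that rose and 105 to 169 that fell.

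The deviations of same-numbered libraries correlated at 0.024, 0.009 and 0.056, which gave little sign that replicate numbers paired the samples. With 3 libraries per stage these values cannot exclude a pairing. Not every library correlated best with its own number. With a replicate block 9682 unigenes rose and 5370 fell, with 295 DEGs that rose and 135 that fell, and the rise of the chlorophyll a/b binding unigene TRINITY_DN22710_c0_g1 did not pass, with an adjusted p of 0.0505 from limma.

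Of the 89 named unigenes called in the main fit, 75 kept the call under every alternative in which they were fitted. The other 14 lost it under at least 1, 13 of them in the fit of all 9 libraries, whose adjusted p stands beside each in the report. The 89 include unigenes that entered through the libraries of a single stage and had to differ, so their kept calls say nothing of stability. Only 74 of the 90 named unigenes were fitted among M7-detected unigenes alone, and 85 without the match groups. The direction turned for 1 unigene, peroxidase 42 (TRINITY_DN18096_c1_g1), which had not passed, at a log2 fold change of 0.0767 under quantile normalization. List medians, taken relative to the median of all unigenes tested, moved by more than the replicate spread for 37 of 62 lists with a mean of at least 5 FPKM, 35 with M7-detected unigenes alone, 34 and 29 with pseudocounts of 5 and 0.1, 23 without the match groups, 21 under quantile normalization, 21 with no filter, 10 with a mean of at least 1 FPKM and none under median ratio rescaling. Leaving out a library moved them for 2 to 18, the most without L1 replicate 3. The depth of each library being unknown, how far low values limit a call was not measured.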
